A study of Mus musculus with 6 samples.

Results

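Endothelial and vessel wall cells were followed through 40 marker genes in gastrocnemius muscle of 3-month-old mice. The genes were chosen by symbol as known markers of endothelial cells, pericytes and vascular smooth muscle, or as signals between them, and all 40 were found among the 57010 gene IDs of the deposited count matrix. The libraries came from 3 untreated mice homozygous for the Dysfprmd allele on the strain B6.A-Dysfprmd/GeneJ (BLAJ), which lack dysferlin, and from 3 untreated wild-type mice labelled C57BL/6, with 1 animal per library. Mutant replicates 1 and 2 were female, while mutant replicate 3 and the 3 controls were male. No control was female, so a fit with sex as a covariate takes the genotype difference from mutant replicate 3 alone. Between 35042245 and 43733641 read pairs per library were counted to genes, without regard to strand.

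Each vessel is a tube of endothelial cells held together by VE-cadherin and other junction proteins, wrapped by pericytes in capillaries and by smooth muscle in arterioles. Endothelial cells respond to vascular endothelial growth factor (VEGF) and angiopoietins through receptor kinases, and transcription factors of the ETS and SOX families keep their identity. In skeletal muscle the capillary bed feeds oxygen and fatty acids to the fibres. In whole-muscle RNA, a difference in the number of cells of a type and a difference in RNA per cell cannot be told apart.

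Some genes outside the vessel list set libraries or groups apart, and their link to the vessel genes was not tested. Dysf, the mutated gene, was at 15.8, 14.7 and 20.3 CPM in the mutants and at 72.3, 99.8 and 145 CPM in the controls (CPM: counts-per-million, scaled to library size), which is -2.64 as a log2 fold change (SE 0.28) with an edgeR adjusted p = 0.0249. The controls had Ifi202b at 7.69, 1.02 and 2.62 CPM, a gene that C57BL/6 mice are known to express little or not at all, and the mutants had 0 in all 3 libraries, so strain background and loss of dysferlin cannot be told apart. Control replicate 2 had the fetal acetylcholine receptor gene Chrng at 20.1 CPM, against at most 0.749 CPM elsewhere. Collagen Col1a1 was at 2131 CPM in mutant replicate 3 and 1424 CPM in control replicate 3, and no higher than 226 CPM in any other library.

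Levels were summed over 8 defining endothelial markers (Pecam1, Cdh5, Tie1, Tek, Erg, Cldn5, Esam and Egfl7). None of them was at 0 in any library. All 8 belong to the vessel genes followed here, and the pericyte and smooth muscle sums share genes with that list too. The sums are therefore no independent check of the endothelial identity of the signal. These 8 markers summed to 287, 242 and 347 CPM in mutant replicates 1, 2 and 3. In control replicates 1, 2 and 3 they summed to 258, 238 and 238 CPM. Mutant replicate 3 was highest, and mutant replicate 2 lay inside the range of the controls. The 6 pericyte markers summed to 826, 802 and 962 CPM in the mutants and to 739, 773 and 778 CPM in the controls, so these groups did not overlap. The separation rested on Rgs5: without it, a sum added after the values were seen, the other 5 came to 375, 439 and 484 CPM in the mutants, and all 3 controls lay inside that range, with 386 CPM in control replicate 1 as the lowest. Abcc9, the largest part of that remainder, had a log2 fold change of -0.067. The 4 smooth muscle markers summed to 112, 183 and 194 CPM in the mutants and to 184, 159 and 99.7 CPM in the controls. Abcc9 is a subunit of a potassium channel that muscle fibres also carry.

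Promoter sequence was examined for the ETS factors that endothelial genes are known for, since the ETS gene Erg is itself among the 40 and stood higher in every mutant. The motif CAGGAAG, an ETS core, was searched on both strands in the 250 bases before each transcription start in the RefSeq promoter table (GRCm38.p6), which held 24 of the 40 genes with 30 starts. It was present at 6 starts of 5 genes (Erg, Robo4, Egfl7, Emcn and Sele), that is 20% of the 30, against 10.8% of all 32851 starts in the table. Egfl7 supplied more than 1 of these starts, and other starts of Erg and Egfl7 lacked the motif. With so few starts, partly of the same genes, the difference between these shares was not tested. The CArG box, known as the binding site of serum response factor in smooth muscle genes, had 0 exact matches (CC, 6 of A or T, GG) among the 30 starts and was in 1.47% of all starts. Acta2 was among the genes searched, and its window holds ccctatatgg and ccttgtttgg, each 1 base off the exact pattern. Near matches were not counted, so the search does not show that such sites are absent. The table held no start for Tagln or Myh11, and so few starts at so rare a motif say nothing about these genes. Windows for 4 endothelial genes are printed because they carry the ETS core, with the motif in capitals on either strand, 5′ to 3′ on the strand of the gene.
Erg (chr16:95459349-95459598, minus strand): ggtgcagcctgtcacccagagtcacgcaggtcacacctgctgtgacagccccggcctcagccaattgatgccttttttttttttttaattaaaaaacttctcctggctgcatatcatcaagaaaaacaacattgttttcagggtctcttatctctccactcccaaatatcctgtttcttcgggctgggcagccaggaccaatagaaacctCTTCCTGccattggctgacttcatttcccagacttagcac
Robo4 (chr9:37401722-37401971, plus strand): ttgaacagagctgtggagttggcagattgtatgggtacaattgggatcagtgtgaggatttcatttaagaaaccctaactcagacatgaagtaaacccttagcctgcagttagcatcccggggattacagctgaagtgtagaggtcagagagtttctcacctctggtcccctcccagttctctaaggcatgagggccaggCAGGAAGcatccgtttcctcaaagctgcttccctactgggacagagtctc
Egfl7 (chr2:26583615-26583864, plus strand): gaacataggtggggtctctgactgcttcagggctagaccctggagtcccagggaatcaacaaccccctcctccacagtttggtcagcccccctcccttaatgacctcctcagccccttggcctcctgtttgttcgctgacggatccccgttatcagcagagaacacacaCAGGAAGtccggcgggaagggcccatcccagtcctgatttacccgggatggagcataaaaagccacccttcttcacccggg
Emcn (chr3:137340828-137341077, plus strand): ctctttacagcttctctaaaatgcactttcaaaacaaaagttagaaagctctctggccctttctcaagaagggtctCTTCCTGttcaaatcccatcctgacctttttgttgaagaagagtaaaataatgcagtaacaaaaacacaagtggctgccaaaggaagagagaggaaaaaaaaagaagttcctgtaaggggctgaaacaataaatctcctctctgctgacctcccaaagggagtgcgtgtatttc

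Read as a group, the vessel genes leaned higher in the mutants by a small amount, and no single gene passed the test. Of the 40, 34 were higher in the mutants and 6 lower, with a median log2 fold change of 0.22, against 49.8% higher and a median of -0.0015 over all 15589 genes tested. With edgeR's quasi-likelihood test and Benjamini-Hochberg adjustment over all genes, 0 of the 40 were called at an adjusted p below 0.05, where 0.199% of all genes were called and 0.0128% were called higher. Strand-matched counts also gave 0 of the 40, where 0.18% of all genes were called. DESeq2, which called 1.18% of all genes and had 7.51% at an unadjusted p below 0.05, called 0 of the 40, as did limma-voom, and the authors' deposited table listed 0 of them below 0.05. At an unadjusted edgeR p below 0.05 there were 5 of the 40 (Vwf, Erg, Dll4, Rgs5 and Angpt1), all higher, where 6.94% of all genes reached that level and 3.25% did so with higher levels in the mutants. That count of 5 was 12 with sex as a covariate, 9 without control replicate 1 and 3 without mutant replicate 3 or control replicate 2. It was 2 without control replicate 3 and 1 without mutant replicate 1. The count over all genes moved too, from 1082 of 15589 to 976 of 17179 with sex as a covariate. Without control replicate 1, 2 or 3 it was 1520 of 15952, 1293 of 15867 or 1051 of 15967. Without mutant replicate 1 or 3 it was 600 of 16006 or 1202 of 15965. The 3 mutants lay above the 3 controls without overlap in 6 of the 40 and below them in 0, where the shares over all genes were 5.97% and 6.09%. With strand-matched counts Tagln overlapped, and the mutants lay above in 5 of the 40 and below in 0, where 6.03% of all genes lay above.

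Mutant replicate 3 carried much of the lean. It had the highest level of the 6 libraries in 23 of the 40 genes, against 19.1% of all genes tested, and the lowest in 0. Without it, 27 of the 40 were higher and the median log2 fold change was 0.094. Mutant replicate 3 was the male mutant, and against the 3 male controls alone it had 36 of the 40 higher with a median of 0.44. With sex as a covariate the genotype difference rests on this same comparison, and the median was 0.43. Control replicate 1 was the highest library in 9 of the 40, or 22.5%, near the 19.8% of all genes tested, and the lowest in 8. Without it 39 of the 40 were higher with a median of 0.31. The part of sex and of the high collagen of mutant replicate 3 in this lean was not tested.

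**Figure D1:**
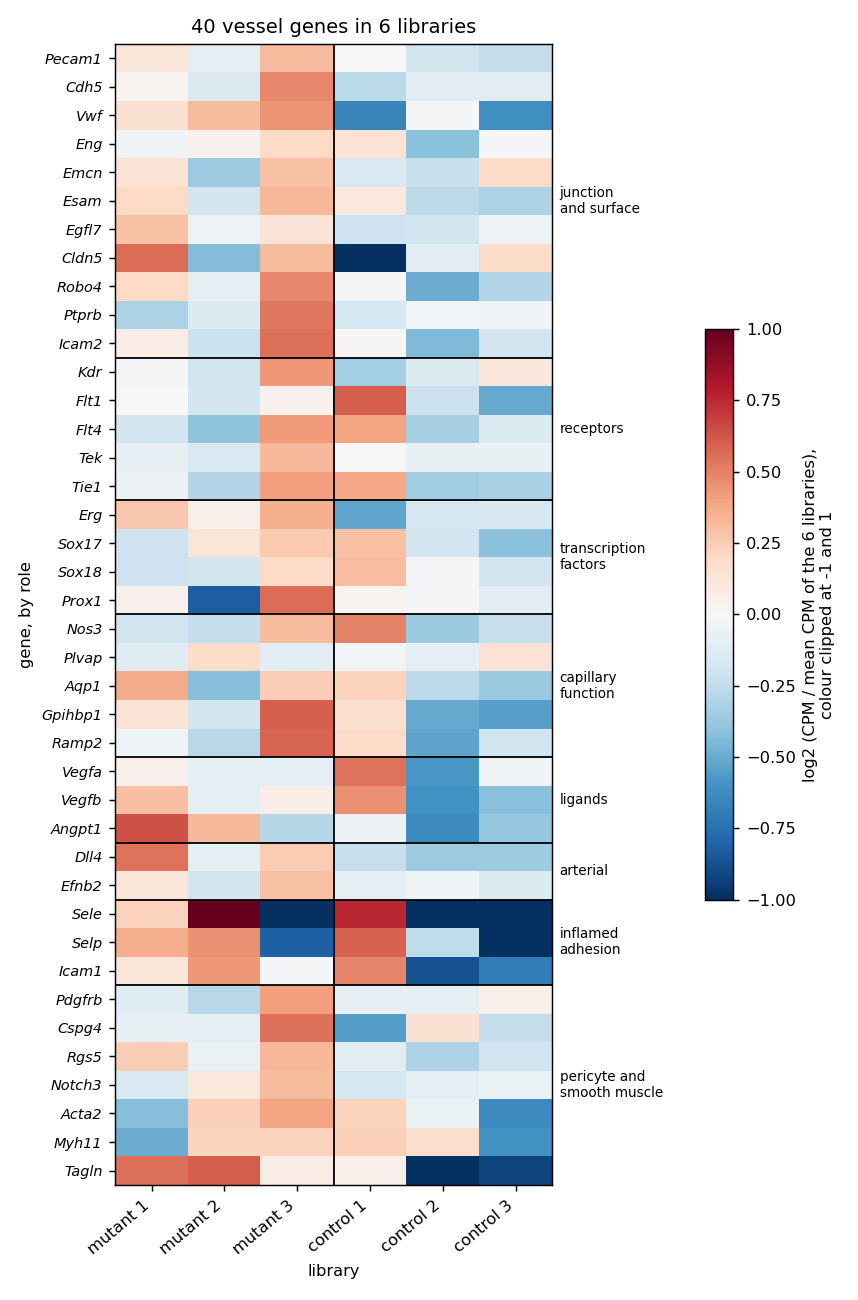
Level of each of the 40 genes in each library as log2 of its CPM over its mean CPM in the 6 libraries, mutants in the left columns and controls in the right, genes in rows by role, colour clipped at -1 and 1. Mutant replicate 3 is the highest library in 23 of the 40 rows.

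The 11 genes of endothelial junctions and the cell surface were all higher in the mutants, with a median log2 fold change of 0.28 and 0 called. That median was 0.15 without mutant replicate 3 and 0.54 once sex entered the model, which leaves mutant replicate 3 alone against the controls. Vwf, which encodes the von Willebrand factor that endothelial cells store and release to catch platelets, was at 46.2, 51.9 and 56.7 CPM in the mutants and at 26.4, 41.3 and 27.2 CPM in the controls. Every mutant lay above every control, and the log2 fold change was 0.71 (SE 0.20, edgeR adjusted p = 0.53). Cdh5, which encodes VE-cadherin, had the highest level per length of this class and was at 76.9, 68.0 and 105 CPM in the mutants and at 62.5, 69.9 and 69.5 CPM in the controls. The groups overlapped through mutant replicate 2 (log2 0.31, SE 0.18, edgeR adjusted p = 0.814). Egfl7, a secreted endothelial protein, was at 20.4, 16.1 and 18.2 CPM in the mutants and at 14.4, 14.6 and 16.1 CPM in the controls, where mutant replicate 2 and control replicate 3 were level to 3 digits and the mutants stayed above by less than that (log2 0.28, SE 0.14, edgeR adjusted p = 0.777). Robo4, an endothelial guidance receptor named here after its values were seen because its promoter is shown, averaged 15.2 ± 3.07 CPM in the mutants and 11 ± 1.89 CPM in the controls (SD, n = 3 each), with overlapping groups.

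The other surface genes overlapped between the groups. Pecam1, the platelet endothelial adhesion molecule, averaged 76.1 ± 10.9 CPM in the mutants and 63.5 ± 5.77 CPM in the controls (SD, n = 3 each). Cldn5, the tight junction claudin, spread widely within the groups, at 13.7, 6.89 and 11.6 CPM in the mutants and at 4.50, 8.59 and 10.6 CPM in the controls. Esam and Icam2 (adhesion molecules), Eng (a TGF-beta co-receptor), Emcn (a sialomucin of veins and capillaries) and Ptprb (the phosphatase that restrains Tie2) had log2 fold changes between 0.10 and 0.37. Without mutant replicate 3, Emcn and Ptprb were slightly lower in the mutants, at -0.036 and -0.15.

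Of the 5 growth factor receptors 3 were higher and 2 lower, with a median of 0.10 (log2). That median had no stable sign, at -0.12 without mutant replicate 3, -0.026 without control replicate 2, -0.023 without control replicate 3, 0.22 without control replicate 1 and 0.40 with sex as a covariate. Tie1, the orphan partner of the angiopoietin receptor and the highest of the 5 per length, was at 32.5, 27.6 and 44.9 CPM in the mutants and at 44.2, 26.6 and 27.0 CPM in the controls. One library in each group, mutant replicate 3 and control replicate 1, stood far above the rest. Flt1, the VEGF receptor that acts largely as a decoy, was at 72.0, 63.7 and 74.5 CPM in the mutants and at 110, 62.4 and 51.0 CPM in the controls, the 3 mutants lying between the extremes of the controls (log2 -0.085, SE 0.28, edgeR adjusted p = 0.975). Without control replicate 1 the Flt1 value was 0.30. Kdr, the main signalling receptor for VEGF-A, had a log2 fold change of 0.21 (SE 0.20), Tek, the angiopoietin receptor Tie2, one of 0.10 (SE 0.15), and Flt4, the receptor of lymphatic endothelium, one of -0.018 (SE 0.29).

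Of the 4 transcription factors 3 were higher, and their median of 0.10 (log2) was -0.11 without mutant replicate 3, 0.0038 without control replicate 3 and 0.45 with sex as a covariate. Erg was the one with separate groups. It was at 12.7, 10.9 and 13.5 CPM in the mutants and at 7.34, 9.31 and 9.41 CPM in the controls, every mutant lying above every control (log2 0.51, SE 0.17, edgeR adjusted p = 0.615). Leaving out each library in turn gave Erg values between 0.39 and 0.59. Sox18, a SOX factor of vessel and lymph vessel development with the highest level per length of the class, was at 10.4, 10.6 and 13.8 CPM in the mutants and at 14.9, 11.9 and 10.6 CPM in the controls, with full overlap (log2 -0.11, SE 0.19, edgeR adjusted p = 0.954). Sox17, a SOX factor of arteries, had a log2 fold change of 0.14 (SE 0.23). Prox1, the master regulator of lymphatic endothelium, spread widely in the mutants, at 5.34, 2.92 and 7.61 CPM, against 5.27, 5.14 and 4.78 CPM in the controls.

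Of the 5 genes of capillary function 3 were higher and 2 lower (median 0.22), and they included the most abundant of the 40 per length. The median was 0.027 without mutant replicate 3, 0.064 without mutant replicate 1, 0.10 without control replicate 3, 0.12 without control replicate 2, and 0.42 without mutant replicate 2 or control replicate 1. Aqp1, the water channel of capillary endothelium, was at 453, 261 and 414 CPM in the mutants and at 409, 291 and 270 CPM in the controls, with mutant replicate 2 below every control (log2 0.22, SE 0.26, edgeR adjusted p = 0.917). Gpihbp1, which carries lipoprotein lipase to the capillary lumen, was at 20.9, 16.7 and 28.9 CPM in the mutants and at 21.3, 13.4 and 13.1 CPM in the controls. Control replicate 1 alone overlapped the mutants there, and without it the log2 fold change was 0.73, against 0.47 with all libraries (SE 0.27). Plvap, the diaphragm protein of fenestrated endothelium, was among the closest to level, at 20.5, 25.4 and 20.7 CPM in the mutants and at 21.9, 21.0 and 24.7 CPM in the controls (log2 -0.022, SE 0.14, edgeR adjusted p = 0.989). Nos3, the endothelial nitric oxide synthase, was at 3.91, 3.80 and 5.57 CPM in the mutants and at 6.32, 3.47 and 3.81 CPM in the controls, with control replicate 1 highest (log2 -0.032, SE 0.30, edgeR adjusted p = 0.994). Ramp2, which turns the calcitonin receptor-like receptor into a receptor for adrenomedullin, had a log2 fold change of 0.28 (SE 0.27), and its annotated exons overlap those of Vps25 on the same strand, which can divert its reads.

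The 3 angiogenic ligands, made in muscle by fibres and mural cells among others, differed in direction (2 higher, 1 lower, median 0.21). The median was 0.014 without control replicate 2, 0.072 without control replicate 3, 0.10 without mutant replicate 1, 0.60 without control replicate 1 and 0.045 with sex as a covariate. Angpt1, the ligand of Tie2, was at 28.1, 22.6 and 14.8 CPM in the mutants and at 17.3, 11.6 and 13.9 CPM in the controls. The female mutants lay above every control and mutant replicate 3 inside the controls (log2 0.61, SE 0.26, edgeR adjusted p = 0.718). The Angpt1 value was 0.045 with sex as a covariate and 0.058 in males only, and 0.39 without mutant replicate 1. Vegfa, the main VEGF of muscle, was at 103, 93.2 and 93.4 CPM in the mutants, inside the range of the controls at 146, 66.6 and 97.6 CPM (log2 -0.10, SE 0.27, edgeR adjusted p = 0.969). Vegfb, a VEGF family member tied to fatty acid uptake and the highest ligand per length, was at 112, 85.7 and 95.4 CPM in the mutants and at 125, 60.0 and 68.2 CPM in the controls, with control replicate 1 above all mutants (log2 0.21, SE 0.28, edgeR adjusted p = 0.937). The 2 VEGF genes followed the same order over the controls' extremes, with control replicate 1 highest and control replicate 2 lowest of the 6 libraries in both.

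Dll4, the Notch ligand of arterial and sprouting endothelium, was at 11.2, 7.25 and 9.21 CPM in the mutants and at 6.57, 5.98 and 6.03 CPM in the controls. The controls lay close together and every mutant lay above them (log2 0.57, SE 0.20, edgeR adjusted p = 0.653). Efnb2, the arterial ephrin, was at 11.6 ± 1.94 CPM in the mutants and 10.3 ± 0.362 CPM in the controls (SD, n = 3 each), and the groups overlapped.

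The 3 adhesion molecules of inflamed endothelium were scarce, and all 3 fold changes lay above 0 with wide errors (median 0.42). Their direction turned with sex as a covariate, to a median of -0.71, and in males only, to -0.70, and the median was 0.0049 without mutant replicate 2, 0.18 without control replicate 2, 0.23 without control replicate 3 and 0.97 without control replicate 1. Sele (E-selectin), which cytokines induce, had 99 read pairs in the 6 libraries together, at 0.502, 0.937 and 0.153 CPM in the mutants and 0.724, 0.181 and 0.0763 CPM in the controls. Selp (P-selectin), stored beside von Willebrand factor, was at 2.54, 2.7 and 1.12 CPM in the mutants and at 2.97, 1.65 and 0.839 CPM in the controls. In both selectins the 2 female mutants and control replicate 1 were the 3 highest libraries and control replicate 3 was the lowest. Icam1, the ligand of leukocyte integrins and the highest of the class per length, was at 4.52, 5.62 and 4.12 CPM in the mutants and at 5.84, 2.27 and 2.57 CPM in the controls, with control replicate 1 above all mutants (log2 0.42, SE 0.38, edgeR adjusted p = 0.895).

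**Figure D2:**
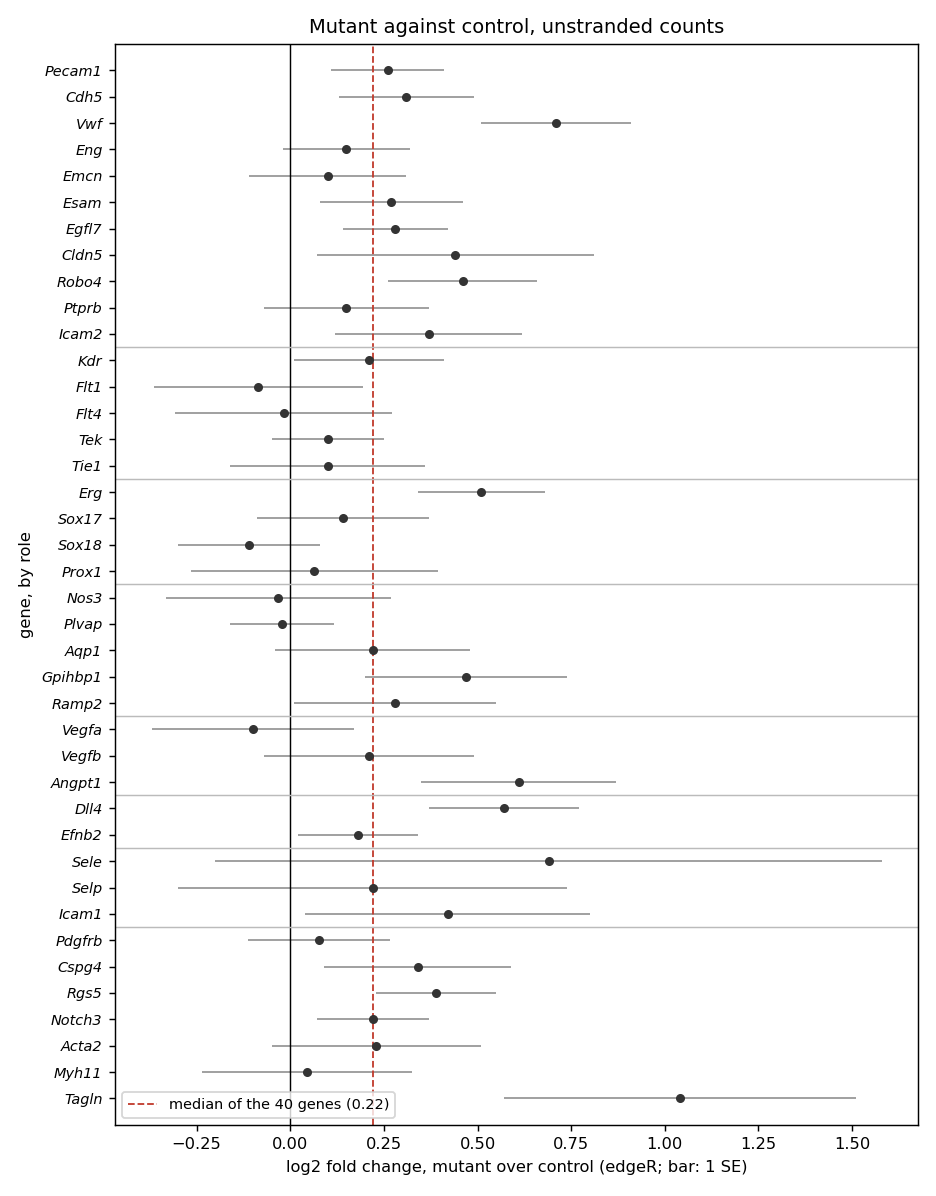
Log2 fold change of mutants over controls (horizontal axis, bar 1 SE, edgeR on unstranded counts) for the 40 genes by role, with a dashed line at their median of 0.22. Points lie to the right of 0 for 34 genes, and the widest bars belong to Sele, Selp and Tagln.

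The 7 mural genes, which mark the cells around the endothelium, were all higher in the mutants (median 0.23, 0 called) and showed 2 patterns. The median was 0.093 without mutant replicate 3 and 0.35 without mutant replicate 1. It was 0.50 once sex entered the model, with mutant replicate 3 alone against the controls. Rgs5, a regulator of G-protein signalling that marks pericytes, was at 451, 362 and 478 CPM in the mutants and at 352, 306 and 330 CPM in the controls. Every mutant lay above every control, with mutant replicate 2 closest (log2 0.39, SE 0.16, edgeR adjusted p = 0.701). Pdgfrb, the platelet-derived growth factor receptor that recruits pericytes, overlapped at 36.6, 32.8 and 52.9 CPM in the mutants and 37.5, 37.3 and 41.2 CPM in the controls, and without mutant replicate 3 it was lower in the mutants, at -0.16. Cspg4 (the NG2 proteoglycan) and Notch3 (the mural Notch receptor) had log2 fold changes of 0.34 (SE 0.25) and 0.22 (SE 0.15). Mutant replicate 3 was the highest library in these 4 pericyte genes, but not in the other pericyte markers summed above. Kcnj8 was highest in mutant replicate 1, at 24.9 CPM against 24 CPM in mutant replicate 3. Abcc9 was highest in control replicate 2, at 360 CPM against 341 CPM in mutant replicate 3.

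The smooth muscle genes did not follow the genotype. Acta2, the smooth muscle actin, was at 62.5, 98.6 and 110 CPM in the mutants and at 97.7, 80.0 and 54.0 CPM in the controls (log2 0.23, SE 0.28). Myh11, the smooth muscle myosin, was at 47.4, 78.1 and 78.7 CPM in the mutants and at 79.0, 74.9 and 44.1 CPM in the controls (log2 0.044, SE 0.28). Mutant replicate 1 and control replicate 3 were the lowest libraries in both, so the spread inside each group exceeded the difference between them. With reads counted by strand, Acta2, Myh11, Tagln and Cnn1 (calponin, a further smooth muscle gene) shared the lower places: control replicate 3 was lowest, mutant replicate 1 next and control replicate 2 above it in all 4 genes. Mutant replicates 2 and 3 and control replicate 1 were the 3 highest in all 4, in an order that differed from gene to gene.

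**Figure D3:**
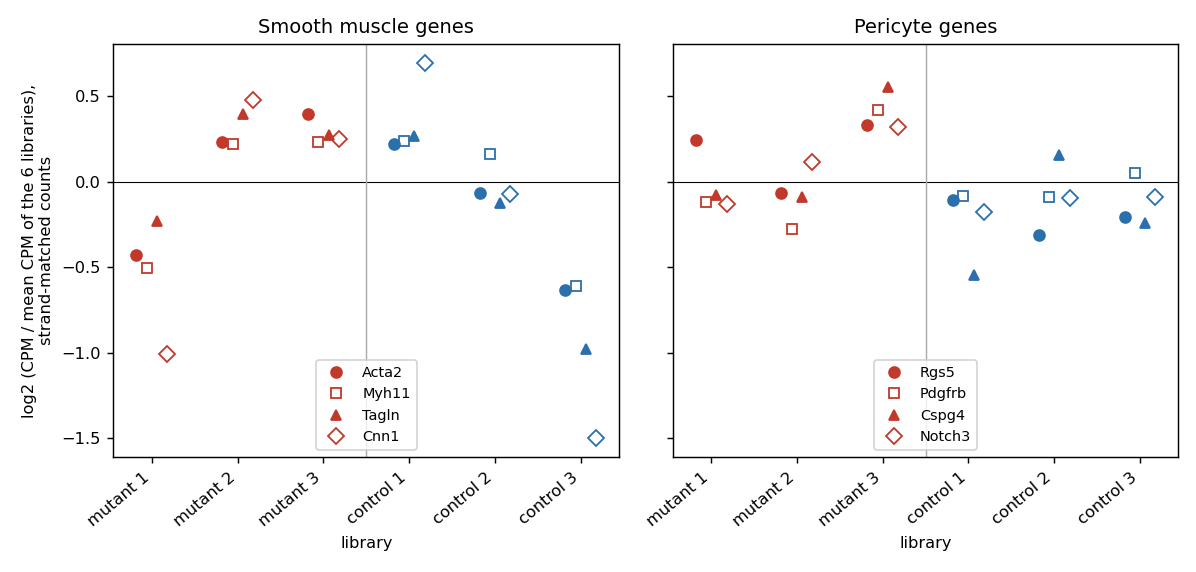
Strand-matched CPM of 4 smooth muscle genes (left) and 4 pericyte genes (right) in each library, as log2 over the mean of the 6 libraries, mutants in red and controls in blue. In the left panel mutant 1 and control 3 lie below the other libraries in every gene, and in the right panel mutant 3 is the highest library in every gene. The pericyte markers Kcnj8 and Abcc9 are not drawn, and mutant 3 is the highest library in neither.

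Tagln, which encodes the smooth muscle protein transgelin, was nearly lost from the deposited matrix by the way reads were counted. It was singled out after its values were seen. The matrix held 67 read pairs for it in the 6 libraries together, whereas the strand-matched counts of the same libraries held 14380, which is 215 times as many. Its annotated exons overlap those of Pcsk7 on the opposite strand (GENCODE M21), and Pcsk7 had 3259 pairs unstranded and 3332 strand-matched. Read pairs counted as ambiguous between genes took 6.93% to 7.49% of a library without strand and 1.23% to 1.44% with it. By strand, Tagln was at 48.7, 75.2 and 69.0 CPM in the mutants and at 68.7, 52.5 and 29.0 CPM in the controls, among the more abundant vessel genes. In the matrix it was at 0.423, 0.441 and 0.305 CPM in the mutants and at 0.300, 0.113 and 0.153 CPM in the controls.

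The choice of count therefore set what Tagln appeared to do. Unstranded, its log2 fold change was 1.04 (SE 0.47, edgeR adjusted p = 0.741), the highest of the 40, with the mutants above the controls without overlap. By strand it was 0.36 (SE 0.32, edgeR adjusted p = 0.886), and the groups overlapped. Nos3 had 2530 pairs by strand against 1061 unstranded, a ratio of 2.38, and shares exon sequence with Atg9b on the opposite strand. Its level by strand was 9.48, 9.36 and 11.6 CPM in the mutants and 14.0, 7.65 and 8.15 CPM in the controls, and its log2 fold change was 0.035, against -0.032 unstranded. Selp and Icam1 gained by ratios of 1.57 and 1.32 and have annotated antisense partners. For 33 of the 40 the ratio lay within 0.05 of 1. Ratios above 1.3 occurred in 4 of the 40 and in 6.54% of all genes tested, and a ratio above 100 in 2 genes of all those tested.

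**Figure D4:**
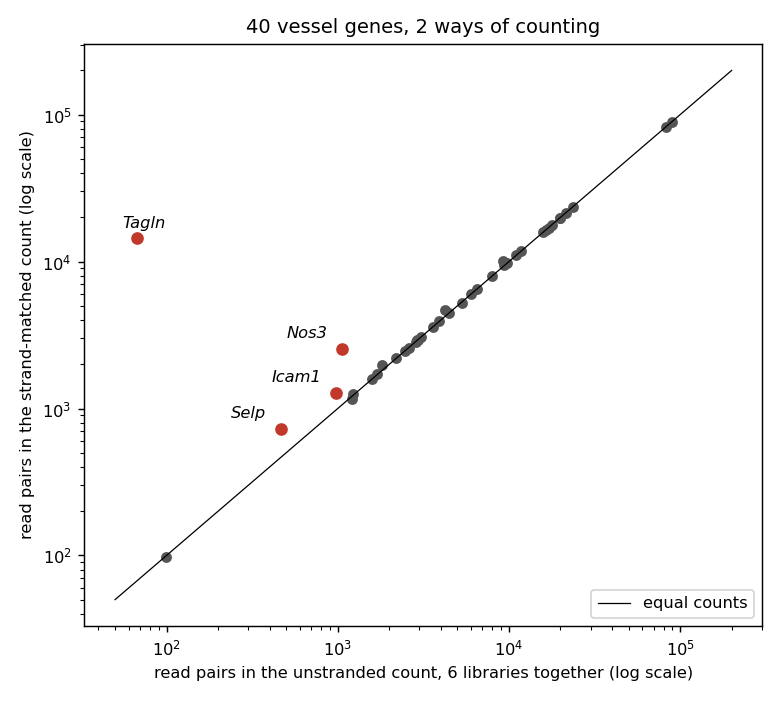
Read pairs of each of the 40 genes in the 6 libraries together, unstranded (horizontal) and strand-matched (vertical), both on log scales, with the line of equal counts. Tagln lies far above the line at 67 and 14380 pairs, Nos3, Selp and Icam1 lie slightly above it, and the other genes lie on or close to it.

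Levels were compared between genes per length, as strand-matched CPM divided by the merged exon length in kilobases (RPKM). Aqp1 was highest at 134 ± 35.9 RPKM in the mutants and 115 ± 26.8 RPKM in the controls, followed by Rgs5 at 88.6 ± 12.4 RPKM in the mutants and 67.9 ± 4.73 RPKM in the controls (SD, n = 3 each). The next in order were Vegfb, Acta2, Tagln, Vegfa and Cdh5, the last at 18.6 ± 4.31 RPKM in the mutants and 15.0 ± 0.908 RPKM in the controls (SD, n = 3 each). The lowest 5 were Cspg4, Flt4, Selp, Prox1 and Sele, each with a mean over the 6 libraries under 1 RPKM, and of these Flt4 and Prox1 mark lymphatic vessels. The range over the 6 libraries overlapped that of the next gene in the order everywhere except between Cdh5 and Eng and between Prox1 and Sele. Merged exon lengths came from GENCODE M21 and can understate levels of genes with long minor isoforms.

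**Figure D5:**
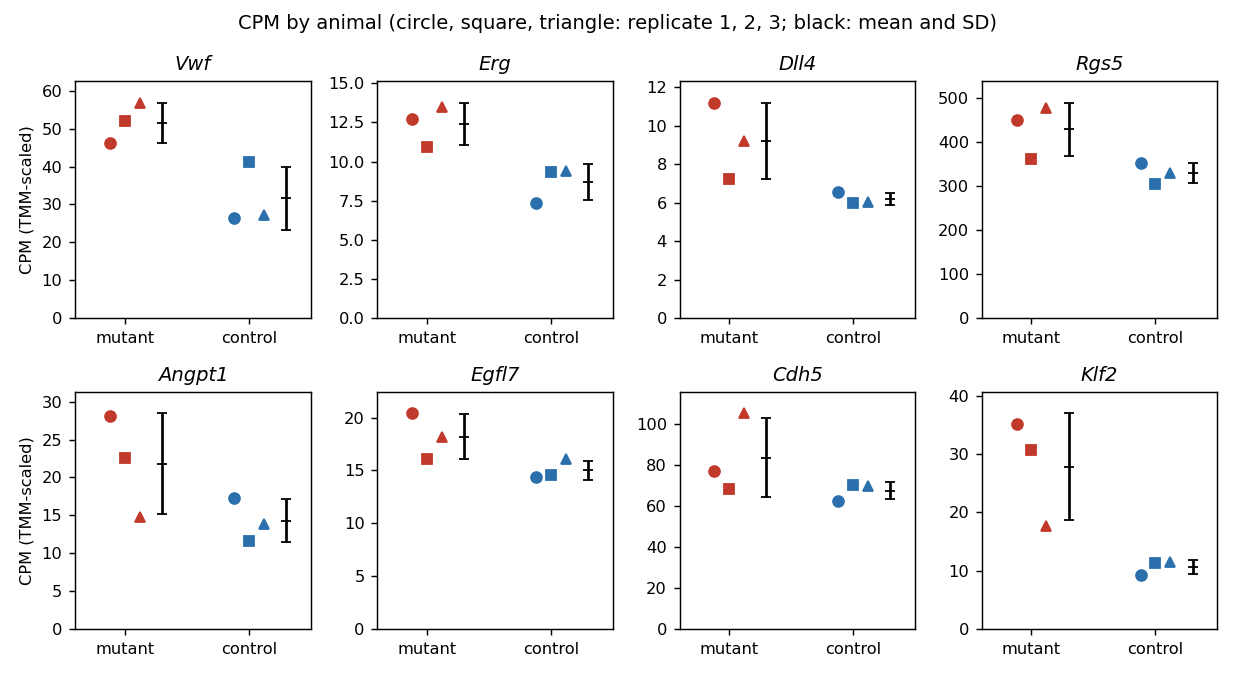
CPM of 7 of the 40 genes and of Klf2 in each animal, mutants in red on the left of each panel and controls in blue on the right, with the mean and SD in black and each vertical axis starting at 0. Vwf, Erg, Dll4, Rgs5, Egfl7 and Klf2 have every mutant above every control, while Angpt1 and Cdh5 overlap.

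Wider lists of vessel genes leaned higher by less or, for the genes of Notch, ephrin and TGF-beta family signalling, not at all. Of 31 further endothelial genes 19 were higher, with a median log2 fold change of 0.10, 0 called by edgeR and 4 at an unadjusted p below 0.05, all higher, which is 12.9% of the list against 3.25% of all genes. The groups did not overlap in the same number of genes, 12.9% against 5.97% of all genes. DESeq2 called 1 of the 31, Klf2, against 1.18% of all genes. Klf2, the transcription factor that flow induces in endothelium, was at 35.2, 30.8 and 17.6 CPM in the mutants and at 9.29, 11.3 and 11.5 CPM in the controls, with every mutant above every control. Klf2 was higher by 1.38 on the log2 scale (SE 0.26), with an edgeR adjusted p = 0.252 and a DESeq2 adjusted p = 0.00071, and its edgeR adjusted p was 0.0155 with no filter on low counts and 0.034 without mutant replicate 3. Over all alternatives its adjusted p ran from 0.00071 to 0.998, and its log2 fold change was 0.71 with sex as a covariate. Klf4, a related factor that flow also induces, was at 25.6, 28.9 and 22.0 CPM in the mutants and at 19.6, 19.1 and 20.3 CPM in the controls (log2 0.37, SE 0.14, edgeR adjusted p = 0.667). Both factors are also made in immune and other cells.

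Of 22 further genes of VEGF, angiopoietin and platelet-derived growth factor signalling, 14 were higher (median 0.11, 0 called by edgeR or DESeq2, 1 at an unadjusted p below 0.05, higher, which is 4.55% of the list). Nrp2, a VEGF co-receptor, averaged 20.0 ± 5.52 CPM in the mutants and 13.9 ± 0.972 CPM in the controls (SD, n = 3 each), with mutant replicate 3 well above the rest. Calcrl, the partner of Ramp2, averaged 21.5 ± 1.88 CPM in the mutants and 17.0 ± 2.55 CPM in the controls (SD, n = 3 each). Of 18 genes of Notch, ephrin and TGF-beta family signalling, 9 were higher and 9 lower (median 0.011, 0 called by edgeR or DESeq2, 3 at an unadjusted p below 0.05, all higher, which is 16.7% of the list against 3.25% of all genes). Id1, a target of bone morphogenetic protein signalling, was at 18.2, 16.0 and 12.9 CPM in the mutants and at 9.66, 10.4 and 6.64 CPM in the controls (log2 0.82, SE 0.22, edgeR adjusted p = 0.496). Smad6, an inhibitor of the same pathway, was at 7.64, 6.61 and 5.39 CPM in the mutants and at 3.60, 4.49 and 4.83 CPM in the controls (log2 0.61, SE 0.21, edgeR adjusted p = 0.655). The mutants lay above the controls without overlap in both. Of 19 further mural genes 13 were higher (median 0.11, 0 called by edgeR or DESeq2, 0 at an unadjusted p below 0.05), and the smallest p belonged to Rgs4, which averaged 12 ± 2.28 CPM in the mutants and 16.5 ± 3.66 CPM in the controls (SD, n = 3 each), and Cox4i2, at 1.97 ± 0.665 CPM in the mutants and 1.21 ± 0.192 CPM in the controls (SD, n = 3 each).

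Markers of several other cell types also leaned higher in the mutants, so the lean was not shown to be particular to vessel genes. Of the 12 macrophage markers 10 were higher (median log2 fold change 0.27), of the 6 adipocyte markers 6 (0.92), of the 5 red blood cell markers 5 (0.38) and of the 6 Schwann cell markers 5 (0.24). Of the 10 fibroblast markers 6 were higher (0.12), and of the 12 fibre markers 7 (0.017), beside 34 of the 40 vessel genes (0.22). The 10 fibroblast markers summed to 948 to 7131 CPM in the mutants and 996 to 5575 CPM in the controls, highest in mutant replicate 3 and control replicate 3. Control replicate 3, with its high collagen, had endothelial markers at 238 CPM, the same as control replicate 2. The 12 macrophage markers summed to 148 to 251 CPM in the mutants and 124 to 200 CPM in the controls, the 6 adipocyte markers to 80.6 to 236 CPM in the mutants and 34.6 to 166 CPM in the controls, and the 6 Schwann cell markers to 126 to 513 CPM in the mutants and 111 to 368 CPM in the controls. The 5 red blood cell markers summed to 1364 to 2025 CPM in the mutants and 770 to 2063 CPM in the controls, and the 12 fibre markers to 161453 to 198575 CPM in the mutants and 151453 to 204888 CPM in the controls. No marker of these lists was at 0 in any library, and their part in the lean of the vessel genes was not tested.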

How the data were processed

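Poly(A)-selected directional libraries were sequenced as paired 61 bp reads, 1 per animal, per the labels' protocols. The authors deposited read pairs as raw counts, in a gene matrix and in 1 file per library that adds a count for each strand. The matrix equalled the unstranded column in all 57010 genes. The submitters' processing notes name STAR 2.7.11b, DESeq2 1.50.2 and GRCm39. Which annotation they counted on is not stated in the labels or headers. The authors also deposited log2 fold changes and adjusted p-values, DESeq2's per the file headers, used here to count calls among the 40 genes and nowhere else.

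Mutants were tested against controls on the unstranded counts with the robust quasi-likelihood test of edgeR 4.0.16 (R 4.3.3), after TMM scaling and filterByExpr (minimum count 10). The model held genotype alone, and p was adjusted by Benjamini-Hochberg over the 15589 genes tested. Fold changes are mutant over control, and SE is the fold change divided by the square root of F. CPM uses TMM-scaled library sizes, so comparisons are relative to most genes. A count of 3 in 1 library is 0.0686 to 0.0856 CPM, a limit that covers counting error only. Pairs counted to no gene, 18.5% to 22.3% of a library, stayed out of library sizes. Symbols matched 52029 IDs. Overlaps and lengths came from GENCODE M21 (GRCm38), and promoters from RefSeq (GRCm38.p6), matched by symbol. The fit was tested on simulated data. Plots were drawn with matplotlib 3.10.9.

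The 40 genes, the other lists and the naming rule were chosen with earlier results of these data known. The rule gave values per library for the 5 genes with the smallest p in each direction, those with separate groups and a mean of 1 CPM or more, and the highest per length of each role, and from the other vessel lists up to 2 genes with the smallest p. Alternatives were RLE and upper quartile scaling, DESeq2 1.42.0, limma-voom (limma 3.58.1), other filters, sex or the replicate number in the model, males only, strand-matched counts, and each library left out.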

Additional observations from a re-analysis of the deposited data

How the results depend on the processing

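None of the 40 vessel genes was called under any of the 16 alternatives, and the smallest edgeR adjusted p among them was 0.0874, without control replicate 2. The count of genes higher in mutants stayed between 27 and 39. The median log2 fold change of the 40 was 0.22 and ran from 0.094 to 0.31 with each library left out. It was 0.43 with sex as a covariate and 0.44 in males only. Both of these fits set mutant replicate 3 alone against the controls, so they are not separate checks. In males only the single mutant is assumed to vary like the controls.

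Over all genes, the 31 calls became 184 in DESeq2, 79 with no filter on low counts, 12 with the replicate block, and 0 with sex in the model or in males only, where 976 and 594 genes had an unadjusted edgeR p below 0.05, and 6 to 49 with each library left out (7 without mutant replicate 1, 6 without mutant replicate 2 and 49 without control replicate 2). Deviations of same-numbered libraries correlated at 0.173, -0.0607 and 0.178, and those of differently numbered libraries at -0.239 to 0.156. With 3 libraries per group, these values cannot decide whether the replicate numbers pair the libraries. With the replicate block the median of the 40 was 0.24, 33 were higher and 0 were called, and Prox1 turned to -0.033. Dysf kept its direction everywhere, at -2.39 with sex as a covariate and -2.38 in males only, both no longer called, and at -2.86 to -2.35 with each library left out. Without mutant replicate 1, 2 or 3 its edgeR adjusted p was 0.228, 0.178 or 0.0637.

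Of the 40 genes, 17 turned sign under some alternative. With sex as a covariate Flt4 was 0.40, Sox18 0.13, Nos3 0.29, Sele -1.09 and Selp -0.71. In males only Flt1 was 0.0064, Flt4 0.42, Sox18 0.15, Nos3 0.30, Sele -1.08 and Selp -0.70. Upper quartile scaling gave Flt4 0.0091 and Plvap 0.0092, limma-voom gave Prox1 -0.031 and Nos3 0.0069, and strand-matched counts gave Nos3 0.035. With each library left out, the ranges that crossed 0 were -0.036 to 0.27 for Emcn, -0.15 to 0.31 for Ptprb, -0.30 to 0.30 for Flt1, -0.30 to 0.22 for Flt4, -0.067 to 0.19 for Tek, -0.12 to 0.38 for Tie1, -0.0078 to 0.36 for Sox17, -0.25 to 0.032 for Sox18, -0.29 to 0.35 for Prox1, -0.23 to 0.28 for Nos3, -0.13 to 0.042 for Plvap, -0.0052 to 0.48 for Ramp2, -0.33 to 0.23 for Vegfa, -0.13 to 0.75 for Selp, -0.16 to 0.21 for Pdgfrb and -0.18 to 0.25 for Myh11. The cause of these turns was not tested. The 99 read pairs of Sele and the 67 of Tagln limit what those values can show.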

Other observations

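Genes of lymphatic endothelium did not separate the groups. Lyve1, the hyaluronan receptor of lymphatic vessels and of some macrophages, was at 10.8, 4 and 12.8 CPM in the mutants and at 14.5, 4.4 and 12.2 CPM in the controls, so 1 library in each group, replicate 2, lay far below the others. Ccl21a, the chemokine that draws dendritic cells into lymph vessels and has near-identical copies that can share its reads, was steadier, at 7.46 ± 0.893 CPM in the mutants and 7.82 ± 1.69 CPM in the controls (SD, n = 3 each). Mmrn1 averaged 3.86 ± 1.90 CPM in the mutants and 4.31 ± 0.812 CPM in the controls (SD, n = 3 each). The 5 lymphatic markers together, Prox1, Lyve1, Flt4, Mmrn1 and Ccl21a, summed to 22.3 to 43.8 CPM in the mutants and 26.6 to 40.1 CPM in the controls.

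Fabp4, a fatty acid binding protein of capillary endothelium and adipocytes, was at 166, 194 and 242 CPM in the mutants and at 151, 126 and 160 CPM in the controls, with every mutant above every control (log2 0.46, SE 0.18, edgeR adjusted p = 0.677). Nr2f2, the COUP-TFII factor of venous endothelium, had the same separation, at 21.1, 26.0 and 25.2 CPM in the mutants and 17.6, 20.1 and 20.1 CPM in the controls (log2 0.32, SE 0.14, edgeR adjusted p = 0.714). Both were chosen after their values were seen.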
